A study of Mus musculus with 18 samples.

Results

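Of the 9 prostate tumours from TRAMP mice in this series, 3 had a high level of Chga, the gene for chromogranin A, and were compared with the other 6. The rule took the tumour arrays alone and split them on the deposited signal of the single Chga probe set, above 500 against 500 or below. That signal was 2879 in tumour 1, 1005 in tumour 4 and 4812 in tumour 9. In the 6 Chga-low tumours it ran from 4.82 in tumour 5 to 129.6 in tumour 2. Tumours 4 and 2 were the nearest to the threshold on either side, both well away from it, and no tumour had a signal between theirs. In 9 normal prostates the same probe set read 37.2 to 163. The groups were thus chosen by the Chga signal, so these values are a description and Chga was left out of every test.

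The study compared TRAMP tumours with normal mouse prostate by hybridising total RNA to Affymetrix arrays, 18 in all. TRAMP mice carry the SV40 T antigens, viral proteins that bind and inactivate the RB family and other tumour suppressors, behind a probasin promoter that is active in prostate epithelium. The normal samples were ventral and dorsolateral lobes of mice described only as normal. No age, strain, stage or treatment is given in the sources used here, and all 9 tumours carry one label, so the Chga split is a property measured on these arrays and not a group of the study's design.

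Neuroendocrine cells store peptide hormones and amines in dense-core granules and release them by regulated exocytosis, with much of the machinery that neurons use at synapses. Chromogranin A is a matrix protein of those granules and a routine tissue marker of such cells. They are scattered and rare in the healthy prostate epithelium, and TRAMP mice are known to develop poorly differentiated neuroendocrine carcinomas beside epithelial lesions. Each array holds RNA of a whole tissue piece, so fewer cells of a type and less RNA per cell cannot be told apart in any value below.

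Levels are given as log2(signal + 16), where a step of 1 is a doubling for bright genes and less for dim ones, and a gene is called dim on an array where it lies under that array's 40th percentile. Where a gene was dim on every array of one group, its difference is measured against background and has no place in an order of sizes. A fold stated as "at least" is then the bound, with the dim arrays set at their 40th percentile. List medians use the measured values, dim arrays included. Several arrays stood apart in ways that run across the split. The seminal vesicle list, secretory genes of a gland next to the prostate, had a mean level of 5.72, 7.48 and 5.54 in tumours 1, 4 and 9. It was 6.83 in tumour 2, but 13.97, 14.53, 9.50, 13.28 and 9.50 in tumours 3, 5, 6, 7 and 8. All 9 measured members were lower in the Chga-high tumours, with a median difference of -5.42. Of them 1, Svs4, passed the test, where 1.9% of all genes were lower, although tumour 4 (10.70) lay above tumour 2 (9.38) for it. The spike controls of the labelling were bright in tumours 1 to 5 and dim in tumours 6 to 9, so each batch held tumours of both groups. Tumour 4 had a urothelium score of 12.17, against 6.35 to 8.39 in the other 8 tumours. It correlated with normal prostate 3 (r = 0.900 across genes) more closely than with tumours 1 and 9 (r = 0.805 and 0.733). Tumours 6 and 8 were the closest pair of all, with r = 0.963 and 4.4% of genes more than 2-fold apart. The part of neighbouring tissue and of these arrays in the results was not tested beyond the omissions and covariates given with them.

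**Figure D1:**
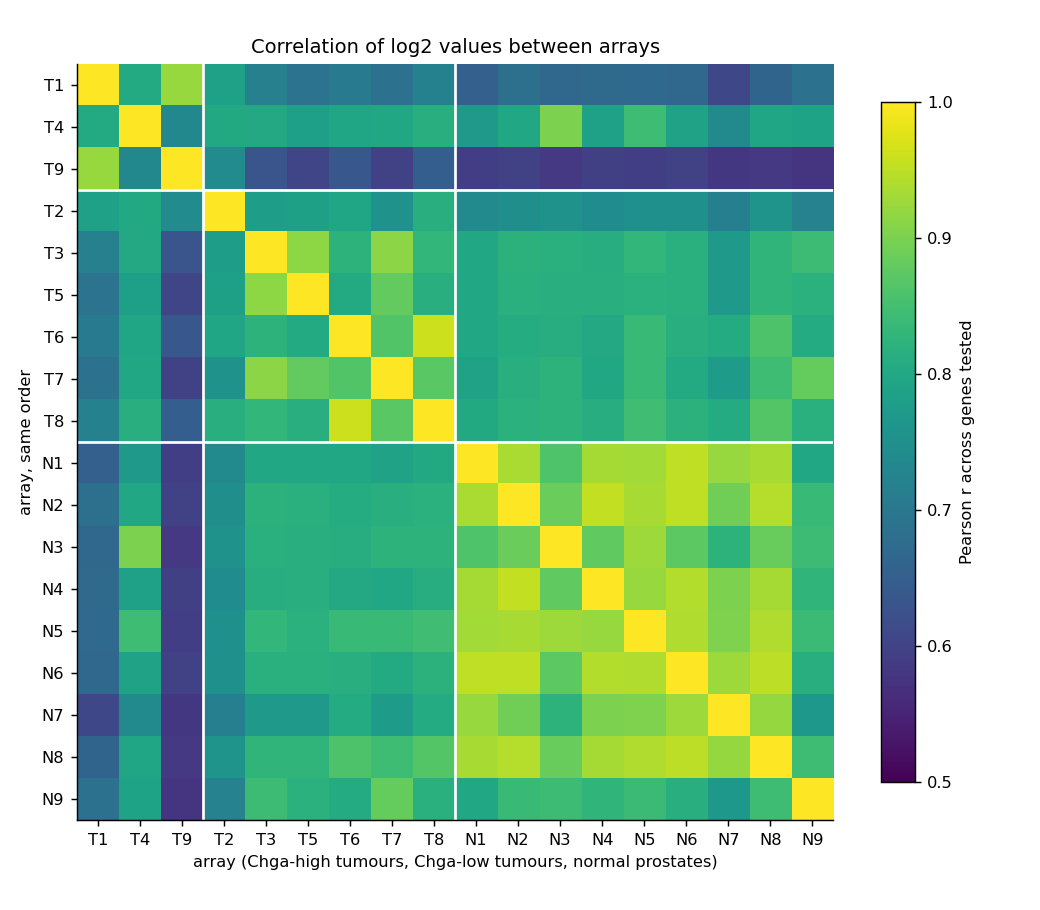
Pearson correlation of log2 values across the genes tested for each pair of the 18 arrays, with white lines between the 3 Chga-high tumours (T1, T4, T9), the 6 Chga-low tumours and the 9 normal prostates (N1 to N9). T1 and T9 are alike (r = 0.923), T4 is closest to N3, and T6 and T8 form the closest pair (r = 0.963).

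Among the genes that rose in the Chga-high tumours were Chgb and Scg3 of the hormone granule, Snap25 of vesicle release and the transcription factors Insm1 and Sox1. Among those that fell were the epithelial surface and junction genes Tspan1, Prom1 and Cldn3. With limma, 690 of 13889 genes (4.97%) passed an adjusted p of 0.05 between the groups, 426 of them (3.07%) higher and 264 (1.9%) lower in the Chga-high tumours. The higher genes had a median difference of 2.37 on the log2 scale and the lower ones a median of -1.83, against -0.06 over all genes tested. A measured difference above 16-fold, dim arrays included, was seen for 55 of the higher and 10 of the lower genes. The 3 and the 6 values did not overlap for 877 genes in the higher direction (6.31% of those tested) and 710 in the lower (5.11%), which include 412 and 258 of the called genes. Centring on housekeeping genes gave 489 higher and 168 lower calls, 74.4% higher in place of 61.7%.

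The 3 Chga-high tumours were not equally far from the rest. Tumour 4 had the lowest level of the 3 for 377 of the 426 higher genes, and tumour 9 the highest for 271. On those genes tumours 1 and 9 averaged 1.13 above tumour 4 at the median. In 342 of the 426, all 3 tumours lay above all 9 normal prostates. Among the 264 lower genes, all 9 normal prostates lay above all 3 Chga-high tumours for 121. Both counts cover called genes alone, which were selected on the levels of these same 3 tumours. The share over all genes tested was not counted, so they describe the calls and no more. Tumour 2, the Chga-low tumour without a high seminal vesicle score, lay below the Chga-high mean by a median of 2.16 on the higher genes. On the lower genes it lay above, where the Chga-high mean minus tumour 2 had a median of -1.47. These genes were called with tumour 2 in the Chga-low group, so its side was largely set by that choice. The median over all genes tested was -0.02.

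The number of calls depended on single tumours: it was 192, 1430, 458, 1950, 448, 372, 405, 351 and 167 when tumours 1 to 9 were left out in turn. With the seminal vesicle score as a covariate 130 genes passed, 108 of them among the 690. That score ran from 5.54 to 7.48 in the Chga-high and from 6.83 to 14.53 in the Chga-low tumours, so the covariate takes up part of the split. Within the 5 tumours of the bright spike batch (2 against 3) no gene passed in limma, where 1192 had an unadjusted p under 0.05.

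**Figure D2:**
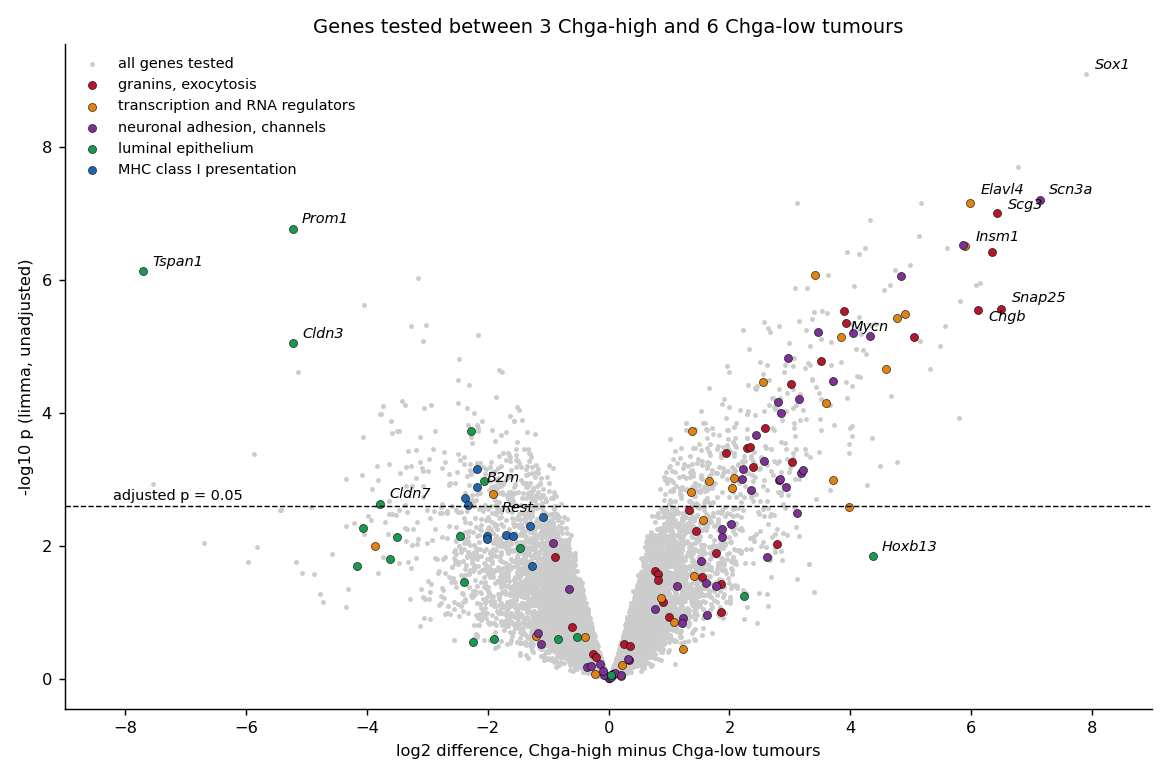
Each point is 1 of 13889 genes, placed by its log2 difference (Chga-high minus Chga-low tumours) and its unadjusted limma p on a -log10 axis, and coloured by list; the dashed line marks an adjusted p of 0.05. Sox1, Scn3a, Elavl4 and Scg3 lie at the upper right, Tspan1, Prom1 and Cldn3 at the upper left, and Hoxb13 lies under the line.

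The granins and the enzymes that process hormones gave 6 higher genes and none lower among 15 tested of 20 on the array, where 3.07% of all genes were higher, with a median difference of 1.55. Of the 6, 4 were dim on all 6 Chga-low arrays and passed the filter through the Chga-high tumours alone. Chgb encodes chromogranin B, a second matrix protein of the granule. It read 11.29, 10.93 and 12.75 in tumours 1, 4 and 9, against 4.29 to 7.22 (median 5.52) in the 6 Chga-low tumours and 4.57 to 5.75 in normal prostate. Every Chga-high tumour stood far above every other array, and Chgb was dim on all 6 Chga-low arrays. The difference was 6.11 ± 0.64 (SE; adjusted p = 0.00108), at least 21.8-fold when the dim arrays are set at their 40th percentile.

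The promoters of Chga and Chgb are shown because the split was made on one granin and the other went with it, and that of Celsr3 because it held the letters of a site for the repressor Rest. They are the 250 bases before the start in RefSeq's GRCm38.p6 annotation, plus strand, at chr12:102554691-102554940 (Chga), chr2:132781392-132781641 (Chgb) and chr9:108825795-108826044 (Celsr3), with matches in capitals.
Chga: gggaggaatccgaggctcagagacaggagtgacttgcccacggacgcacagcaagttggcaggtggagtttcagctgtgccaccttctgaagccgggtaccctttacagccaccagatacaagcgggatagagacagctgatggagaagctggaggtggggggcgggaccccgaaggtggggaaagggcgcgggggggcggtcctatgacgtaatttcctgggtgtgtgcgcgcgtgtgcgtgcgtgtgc
Chgb: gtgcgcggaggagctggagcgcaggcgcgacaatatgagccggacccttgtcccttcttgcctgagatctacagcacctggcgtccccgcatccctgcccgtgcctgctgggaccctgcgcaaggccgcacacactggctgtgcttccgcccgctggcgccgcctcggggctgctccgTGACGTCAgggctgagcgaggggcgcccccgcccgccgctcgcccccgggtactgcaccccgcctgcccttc
Celsr3: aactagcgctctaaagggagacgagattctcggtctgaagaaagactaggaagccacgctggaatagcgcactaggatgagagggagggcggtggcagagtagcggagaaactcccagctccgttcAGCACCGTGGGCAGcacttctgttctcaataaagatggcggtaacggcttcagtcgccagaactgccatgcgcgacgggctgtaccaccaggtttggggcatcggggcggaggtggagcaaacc
Both strands were searched for TGACGTCA, the cyclic AMP response element, and for the core of the RE1 element that Rest binds, whose match is in capitals in Celsr3. TGACGTCA began 72 bases before the start of Chgb and had no exact match in the Chga window. Its search took exact letters only, so the near match tgacgtaa in the Chga window was not counted. It stood in 3.05% of 328 higher genes with a promoter, in 1.98% of 202 lower genes, in 2.82% of the genes tested and in 1.77% of all RefSeq promoters. The RE1 core began 124 bases before the start of Celsr3. It was held by 2 of 328 higher genes (0.61%), Celsr3 and Lhfpl5, the latter noted after its match was seen. None of 202 lower genes held it, against 0.179% of the genes tested and 0.107% of all promoters. With 2 matches these shares are too coarse to compare. A match is a run of letters, and binding was not measured.

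Scg3, secretogranin III, which holds chromogranin A at the granule membrane, read 11.67, 9.45 and 11.86 in tumours 1, 4 and 9. The Chga-low tumours lay between 4.37 and 4.91, and normal prostate between 4.42 and 6.30. The groups were far apart, with a difference of 6.43 ± 0.47 (adjusted p = 0.000192; at least 13.7-fold). Scg5, a chaperone of the prohormone convertase encoded by Pcsk2, followed with 11.37, 9.26 and 11.50 against 4.35 to 6.53 (difference 5.05 ± 0.59, adjusted p = 0.00154; at least 11.3-fold). Ddc, which decarboxylates the precursors of dopamine and serotonin, was among the brightest at 13.27, 11.86 and 13.44 against 5.25 to 7.67 (6.35 ± 0.54, adjusted p = 0.000331). Ptprn2, a granule membrane protein, differed by 3.52 ± 0.45 (at least 5.51-fold, adjusted p = 0.00284). Pcsk1n, the inhibitor proSAAS, differed by 2.39 ± 0.49 (adjusted p = 0.0248). Ptprn2 and Pcsk1n were picked out after their values were seen.

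Not every granule gene went with the split. Scg2 was under the filter at 8.36, 6.82 and 7.34 in tumours 1, 4 and 9, and tumour 4 lay under tumour 6 of the Chga-low group (6.96). Pcsk1, a convertase that cuts prohormones, was dim in all 3 Chga-high tumours at 5.99, 6.94 and 6.17, inside the range of the Chga-low ones (5.20 to 7.31). The peptide hormones and transmitters themselves gave no call among 9 tested genes, where 4.97% of all genes passed. Another 12 members on the array did not pass the filter, and the median of the 9 was -0.14. Tac1, the precursor of substance P, read 9.51, 7.19 and 8.05 against 5.74 to 8.01 (1.63 ± 0.64, adjusted p = 0.163), and in normal prostate it reached 10.36. Npy, neuropeptide Y, differed by -1.63 ± 0.70 with overlapping groups (adjusted p = 0.201). Of the 6 granule calls, 4 passed with the seminal vesicle score as a covariate and all 6 without tumour 4.

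**Figure D3:**
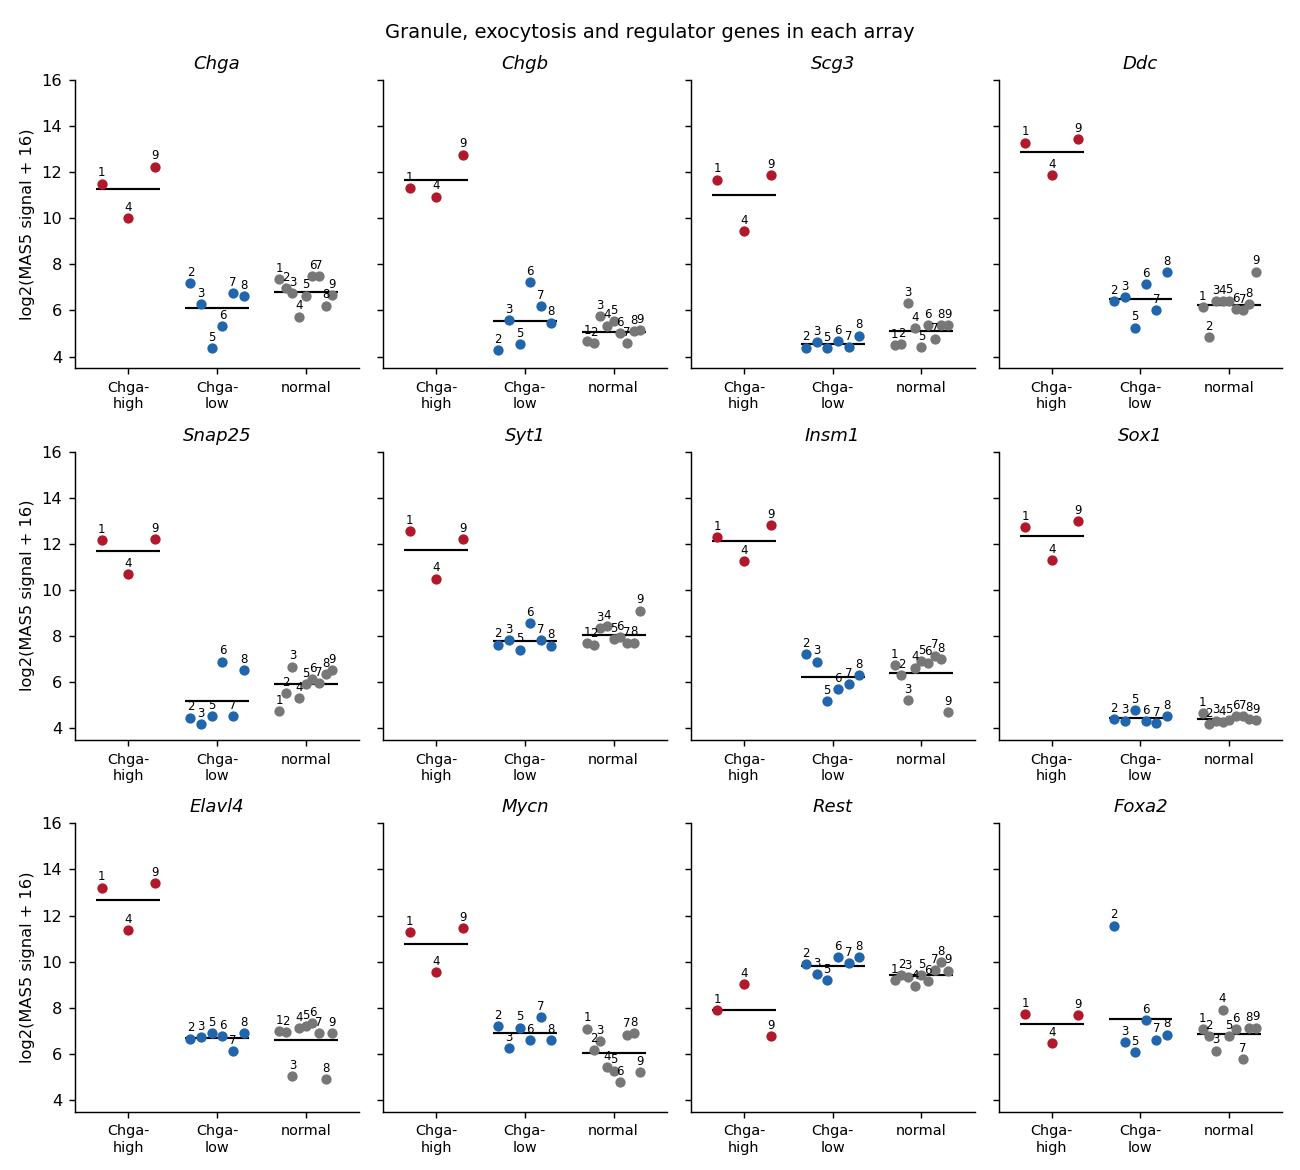
Log2(signal + 16) of 12 genes in each array (points, numbered by tumour or normal prostate) with the mean of each group as a bar, for 3 Chga-high tumours (red), 6 Chga-low tumours (blue) and 9 normal prostates (grey). Tumours 1, 4 and 9 lie above all other arrays for Chgb, Scg3, Ddc, Snap25, Syt1, Insm1, Sox1, Elavl4 and Mycn and below the other tumours for Rest, while Foxa2 is high in tumour 2 alone.

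The vesicle release genes gave 10 higher and no lower members among 23 tested, against 3.07% higher over all genes. All 23 differences were above 0, and the median was 1.87. Of the 10, 2 were dim on all 6 Chga-low arrays and passed the filter through the Chga-high tumours alone. Snap25, a membrane protein of the complex that fuses vesicles, read 12.15, 10.69 and 12.19 in tumours 1, 4 and 9 and 4.17 to 6.90 (median 4.53) in the Chga-low tumours. It was dim on all 6 of those and on all 9 normal prostates, and the difference was 6.49 ± 0.68 (adjusted p = 0.00108; at least 22.1-fold). Syt1, the calcium sensor of release, was not dim on any tumour array, at 12.54, 10.49 and 12.19 against 7.42 to 8.55 (3.94 ± 0.44, adjusted p = 0.00129). Snap91, an adaptor for vesicle retrieval, differed by 3.90 ± 0.41 (adjusted p = 0.00108), with no overlap between 10.01 to 11.23 and 6.44 to 8.07.

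Syp, synaptophysin, which pathologists stain beside chromogranin A, moved less than Syt1 and Snap91. Its levels were 9.70, 8.26 and 9.56 against 6.77 to 7.85, and normal prostate reached 8.21, close to tumour 4. The difference was 1.94 ± 0.37 (adjusted p = 0.0199). All 10 called members lay above all normal prostates, tumour 4 was the lowest of the 3 for all 10, and 3 of the 10 passed with the seminal vesicle covariate.

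Among the transcription and RNA regulators, 15 rose with the split and 1 fell, out of 28 tested, with a median of 1.61. Over all genes tested 3.07% were higher and 1.9% lower. Of the 15, 8 were dim on all 6 Chga-low arrays and passed the filter through the Chga-high tumours alone, so the count and median lean upwards. Insm1, a zinc finger factor needed for neuroendocrine differentiation, read 12.29, 11.23 and 12.81 against 5.19 to 7.21 in the Chga-low tumours and 4.70 to 7.16 in normal prostate. No other array came near the 3, and the difference was 5.90 ± 0.49 (adjusted p = 0.000328). Elavl4, a neuronal RNA-binding protein, read 13.21, 11.38 and 13.42 against 6.14 to 6.92 (5.98 ± 0.42, adjusted p = 0.000161; at least 43.9-fold). Sox11 differed by 4.77 ± 0.52 and Mycn by 3.85 ± 0.45, each with no overlap. St18 and Neurod4 were dim on all 6 Chga-low arrays and higher by at least 9.02-fold and 2.01-fold (measured differences 4.90 ± 0.52 and 3.41 ± 0.31). Sox11 was picked out after its values were seen. Mycn, a MYC family factor known from neuroblastoma, stood at 11.27, 9.54 and 11.46 against 6.27 to 7.59. Pou3f2, also known as Brn-2, rose by 2.04 ± 0.46 (adjusted p = 0.0351) from a level that was dim on all 6 Chga-low arrays (at least 1.83-fold).

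Rest, the repressor that keeps neuronal genes silent outside the nervous system, was the regulator that passed as lower. Isl1, a homeobox factor of motor neurons and endocrine cells picked out after its values were seen, had a more negative difference of -3.87 that did not pass (adjusted p = 0.1). Rest read 7.90, 9.04 and 6.79 in tumours 1, 4 and 9, against 9.20 to 10.22 (median 9.93) in the Chga-low tumours and a median of 9.41 in normal prostate. The 2 tumour groups did not overlap, but tumour 4 lay above the lowest normal prostate (8.95). The difference was -1.91 ± 0.45 (adjusted p = 0.0387), and -2.15 with the seminal vesicle covariate, where the adjusted p rose to 0.18. Srrm4, a splicing factor that is known to act on Rest transcripts in neurons, was dim on all 6 Chga-low arrays and read 7.97, 7.55 and 7.69 against 5.46 to 6.75 (1.36 ± 0.31, adjusted p = 0.0375; at least 1.44-fold), and it was picked out after those values were seen. Of the 16 regulator calls, 6 passed with the seminal vesicle covariate.

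Some well-known neuroendocrine regulators did not go with Chga. Foxa2 read 7.74, 6.46 and 7.69 in the Chga-high tumours and 11.57 in tumour 2, where the other Chga-low tumours lay between 6.09 and 7.46. Sox2 was likewise 13.70 in tumour 2, against 8.62, 8.03 and 8.47 in the Chga-high tumours, and 5.09 to 9.64 in the rest. The Chga-low tumour nearest to the threshold was thus the only tumour with high Foxa2, and the one with the highest Sox2. Neither gene passed the test (adjusted p = 0.92 and 0.954), although Sox2 passed as lower with the seminal vesicle covariate (-4.93, adjusted p = 0.0265). Neurod1 was 8.04, 7.35 and 6.43 against 6.34 to 7.82 (adjusted p = 0.785).

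Neuronal adhesion, axon and cytoskeleton genes gave 13 higher and no lower members among 30 tested, against 3.07% higher over all genes. Their median was 2.12. Of the 13, 4 were dim on all 6 Chga-low arrays and passed the filter through the Chga-high tumours alone. Stmn3, a stathmin that binds tubulin, read 13.44, 11.83 and 14.07 against 6.70 to 8.11 (5.87 ± 0.48, adjusted p = 0.000328). Celsr3, an atypical cadherin of axon guidance and the owner of the RE1 letters printed above, read 10.53, 9.36 and 11.02 against 4.88 to 6.57 (4.84 ± 0.45, adjusted p = 0.000514; at least 8.52-fold). Crmp1, a cytosolic protein of growth cones, differed by 4.32 ± 0.50 (adjusted p = 0.00152; at least 12.4-fold). Uchl1, the neuronal ubiquitin hydrolase, differed by 4.05 ± 0.47 and was highest in tumour 4 (12.94), and normal prostate 3 held 12.76. Eno2, neuron-specific enolase, rose by 2.22 ± 0.46 (adjusted p = 0.0255).

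Ncam1, the neural cell adhesion molecule, was not among them. Its levels of 12.06, 10.38 and 12.79 overlapped the Chga-low range of 8.35 to 11.55 (1.22 ± 0.73, adjusted p = 0.333), in which tumour 2 was the lowest. Of the 13 calls, 11 lay above all normal prostates and 4 passed with the seminal vesicle covariate.

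Voltage-gated channels gave 7 higher and no lower genes among 19 tested, against 3.07% higher over all genes, with a median of 0.77. Of the 7, 3 were dim on all 6 Chga-low arrays and passed the filter through the Chga-high tumours alone. Scn3a, a sodium channel of the developing brain, went from dim to bright, at 12.38, 10.59 and 12.60 against 4.21 to 5.73, with all 6 Chga-low and all 9 normal arrays dim (7.14 ± 0.50, adjusted p = 0.000161; at least 24.9-fold). Its accessory subunit Scn3b differed by 3.47 ± 0.40 (at least 8.54-fold) and the sodium channel Scn8a by 2.97 ± 0.38 (adjusted p = 0.00142 and 0.00264). Kcnmb2, an accessory subunit of calcium-activated potassium channels, differed by 3.72 ± 0.52 (adjusted p = 0.00428). The calcium channel Cacna1a overlapped between the groups, at 7.25 to 8.49 against 7.03 to 8.60 (0.08 ± 0.37, adjusted p = 0.921). Of the 7 channel calls, 3 passed with the seminal vesicle covariate.

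Sox1 is a transcription factor of neural progenitors. It read 12.71, 11.31 and 12.99 in tumours 1, 4 and 9, and 4.22 to 4.79 in the Chga-low tumours. It was dim on all 6 of those and on all 9 normal prostates (4.18 to 4.67), and the difference was 7.90 ± 0.35 (adjusted p = 1.1e-05; at least 34.8-fold). Sox1 passed in the 27 alternative limma fits over which its adjusted p was compared (at most 0.0121). Not among the 27 are fits within a single spike batch, those without any call, and the filter on the mean, which Sox1 did not pass. Other rises picked on the measured difference, dim arrays included, were Asb4 (6.77 ± 0.42, at least 38.4-fold) and Ccn3, a secreted matricellular protein (6.15 ± 0.59). Pax9, a factor of pharyngeal and tooth development, was another (6.08 ± 0.58, at least 24.4-fold). The protocadherin Pcdh8 (5.60 ± 0.47, at least 32.3-fold) and Csrnp3 (5.82 ± 0.59, at least 14.4-fold) were also among them. Each had an adjusted p of at most 0.000881 and no overlap, with tumour 4 the lowest of the 3 for all of them but Ccn3. Crabp1, which binds retinoic acid, had a high normal level: 11.46, 7.56 and 12.94 in the Chga-high tumours, 4.41 to 5.66 in the Chga-low ones and a median of 11.32 in normal prostate (5.79 ± 0.95, adjusted p = 0.00971; at least 10.8-fold).

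Of 20 luminal epithelial genes tested, 6 were lower and none higher, where 1.9% of all genes were lower. The median was -2.33, and 3 of the 20 differences were positive. Tspan1, a tetraspanin of epithelial surfaces, was dim in the Chga-high tumours at 5.05, 5.02 and 4.86, against 9.98 to 13.64 (median 13.12) in the Chga-low tumours and 10.20 to 14.61 in normal prostate. The difference was -7.70 ± 0.70 (adjusted p = 0.000503), at least 47.5-fold when the dim arrays are set at their 40th percentile, and the lowest Chga-low value was that of tumour 2. Prom1, prominin of apical membrane protrusions, read 9.06, 7.82 and 8.27 against 12.63 to 14.26 (-5.23 ± 0.41, adjusted p = 0.000258). Normal prostate spread from 7.18 to 12.36 around the Chga-high values, so here the Chga-low tumours were the ones above it.

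Tight junction and adhesion genes followed. Cldn3 read 8.13, 5.08 and 6.92 against 10.80 to 12.77 (-5.22 ± 0.63, adjusted p = 0.00175), below all normal prostates. Cldn7 read 8.17, 11.33 and 5.63 against 11.87 to 12.43 (-3.78 ± 0.93, adjusted p = 0.0478), with tumour 4 close to the other group. Epcam, the epithelial cell adhesion molecule, fell by 2.28 to levels of 10.87, 11.14 and 9.64 (SE 0.39, adjusted p = 0.0123). Grhl2, a transcription factor of epithelial junction genes, fell by 2.06 (SE 0.45, adjusted p = 0.0304) and was picked out after its values were seen. Of the 6 luminal calls, 5 lay below all normal prostates, and 2, Tspan1 and Prom1, passed with the seminal vesicle covariate.

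For the classic luminal keratins the Chga-high group was divided. Krt8 read 9.36 and 7.72 in tumours 1 and 9 but 13.95 in tumour 4, against 13.65 to 14.04 in the Chga-low tumours. Krt18 gave 9.56 and 7.05 against 14.65 in tumour 4, and the cadherin Cdh1 gave 8.95 and 6.45 against 13.44. Tumours 1 and 9 were far below all other arrays for the 3 genes and tumour 4 was level with them, and none of the 3 passed (adjusted p = 0.0867, 0.122 and 0.0744). Without tumour 4 all 3 passed, with differences of -5.31 for Krt8, -5.73 for Krt18 and -5.98 for Cdh1 (adjusted p = 0.000119, 0.000421 and 0.000387). The basal markers Krt5 and Trp63 were likewise 12.38 and 12.18 in tumour 4 and 7.63 or less in tumours 1 and 9. Tumour 4 shared these levels with normal prostate 3 (12.37 and 11.96), and held Upk1a, a uroplakin of the bladder lining, at 13.10 against at most 8.30 in the other 8 tumours. Krt14, a basal keratin, was the 1 basal gene of 10 to pass, where 1.9% of all genes were lower. It read 6.35, 4.78 and 4.77 against 7.34 to 10.17 (-3.46 ± 0.60, adjusted p = 0.0123), and was dim in 8 of 9 normal prostates.

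**Figure D4:**
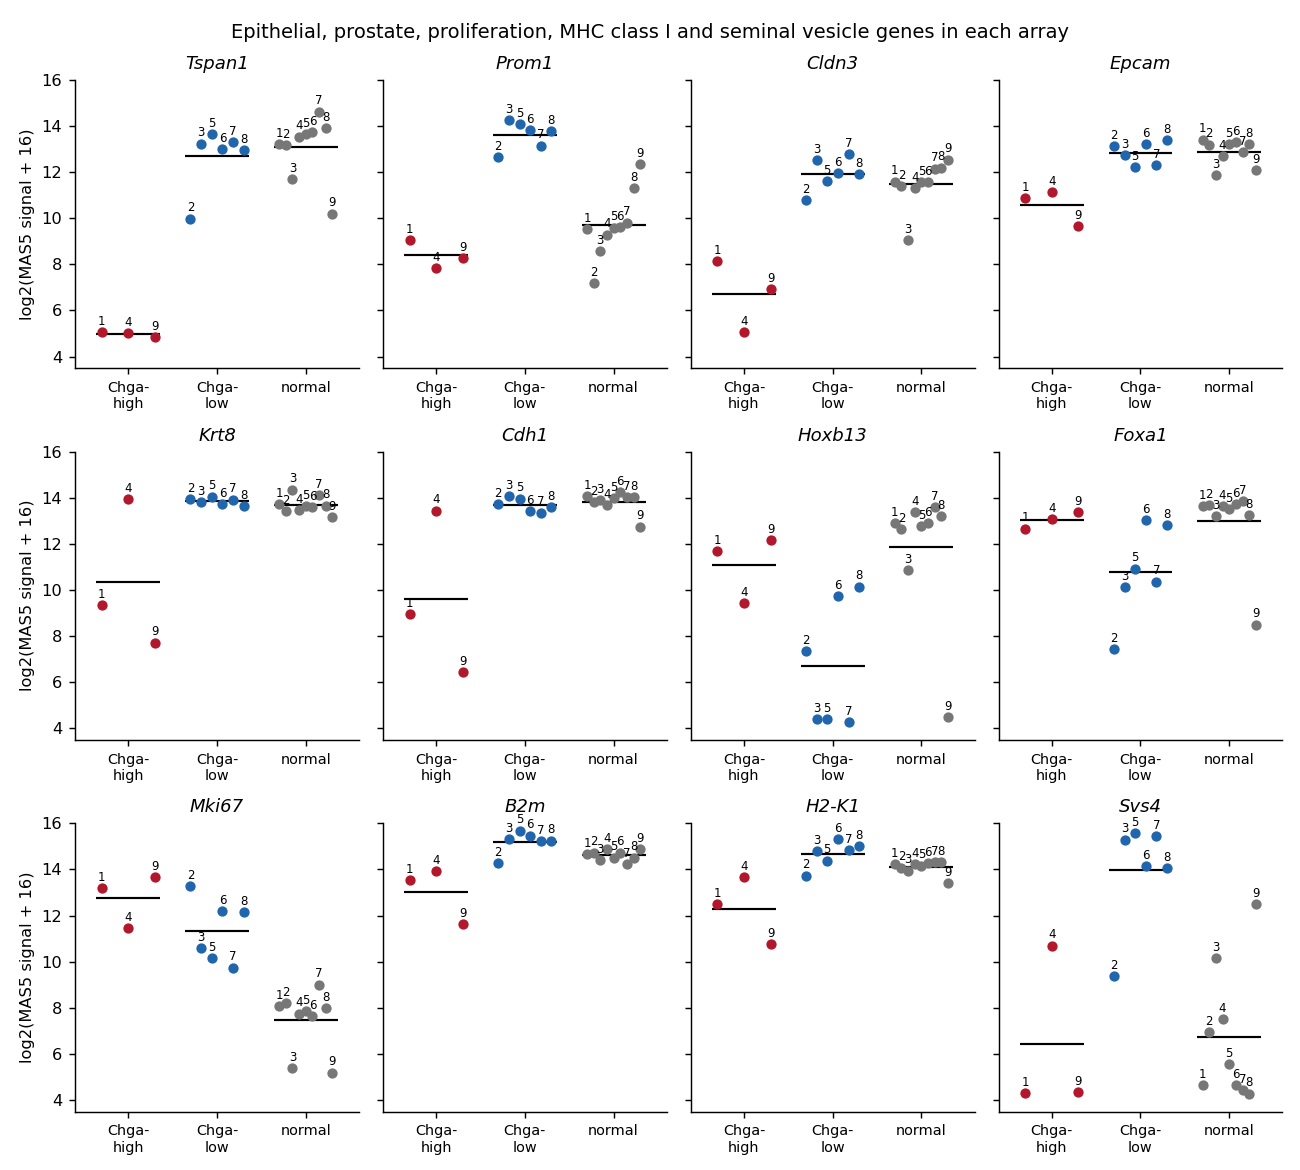
Log2(signal + 16) of 12 genes in each array, drawn as for the granule genes, with 3 Chga-high tumours (red), 6 Chga-low tumours (blue), 9 normal prostates (grey) and the group mean as a bar. Tspan1, Prom1, Cldn3 and Epcam are low in tumours 1, 4 and 9, and Krt8 and Cdh1 are low in tumours 1 and 9 but not 4. Svs4 is high in all Chga-low tumours except tumour 2, which lies below tumour 4.

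The other large falls were a mixed set, of which only Pglyrp1 and Plekhs1 passed with the seminal vesicle covariate. Lcn2, lipocalin of the innate response, read 8.27, 5.64 and 6.30 against 10.21 to 14.85 (-5.87 ± 1.13, adjusted p = 0.02; -3.46 with the covariate, adjusted p = 0.252). Pglyrp1, which binds bacterial peptidoglycan, read 5.32, 4.58 and 4.97 against 7.66 to 11.67 (-4.06 ± 0.72, adjusted p = 0.0141; at least 3.76-fold lower). Sbspon, a secreted matrix protein, differed by -5.14 ± 0.69 (adjusted p = 0.00345; at least 13.4-fold lower). The desmosome protein Pkp2 differed by -3.91 ± 0.89 and the epithelial myosin Myo5c by -3.83 ± 0.78, and both were higher in tumour 4 than in tumours 1 and 9. The glycosyltransferases A4galt and B4galnt2 differed by -4.08 ± 0.87 and -3.81 ± 0.83 (adjusted p = 0.0277 and 0.03), and A4galt by -2.26 with the covariate (adjusted p = 0.332). The last 4 falls picked on the measured difference were dim in all 3 Chga-high tumours. Plekhs1 was at least 4.94-fold lower, Gprc5c at least 3.64-fold and Ppp1r1b at least 5.24-fold (measured differences -4.04 ± 0.42, -3.79 ± 0.61 and -3.77 ± 0.60). Arhgap8, also dim on 1 Chga-low array, differed by -4.35 ± 0.94, and by -1.51 with the covariate (adjusted p = 0.138). Lcn2, Pglyrp1, Sbspon and Gprc5c had medians of 8.33, 5.21, 6.52 and 5.73 in normal prostate, below all the Chga-low tumours. All of these but Lcn2 were dim on most normal arrays. For the other genes of this paragraph the normal median lay above the lowest Chga-low value.

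The 15 tested prostate secretory genes held 1 call, the rise of Crabp1 described above, where 3.07% of all genes were higher and 1.9% lower. Their median was -1.63, and 13 of the 15 differences were below 0. The metalloproteinase Mmp7 and the apolipoprotein Apof, named for their rank on absolute t in this list, had Chga-high values under all the Chga-low ones. Both missed the threshold (adjusted p = 0.0542 and 0.0575). The 22 androgen-responsive genes held no call and a median of -0.26. Hoxb13, a homeobox factor of the prostate, read 11.70, 9.43 and 12.15 in the Chga-high tumours. In the Chga-low tumours it was 4.39, 4.40 and 4.26 in tumours 3, 5 and 7, 7.36 in tumour 2, and 9.74 and 10.15 in tumours 6 and 8, which overlap tumour 4. The difference of 4.37 ± 1.47 did not pass (adjusted p = 0.117). Tumours 3, 5 and 7 are also those with the highest seminal vesicle scores, and normal prostate 9, whose score was 10.01, likewise had a low Hoxb13 level of 4.50. Foxa1, a pioneer transcription factor of prostate epithelium, read 12.66, 13.06 and 13.36 against 7.44 to 13.02 (2.25 ± 1.05, adjusted p = 0.229).

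Proliferation genes were high in tumours of both groups. Of 23 mitosis genes tested, 21 had a positive difference and none passed, with a median of 1.37. Mki67, the antigen of cycling cells, read 13.19, 11.47 and 13.67 against 9.74 to 13.27 (1.43 ± 0.81, adjusted p = 0.312), and tumour 2 gave that highest Chga-low value. The mitosis score was 11.24 and 11.62 in tumours 1 and 9 and 11.36 in tumour 2, above the other tumours. It was 9.52 in tumour 4, inside the 8.33 to 9.86 of the other 5 Chga-low tumours, and 6.43 to 7.38 in normal prostate. Against tumour 2 alone the median of the mitosis genes was -0.62. Against 3.07% higher over all genes, 1 of 29 replication genes, Rrm2, a subunit of ribonucleotide reductase, passed (2.38 ± 0.51, adjusted p = 0.028), and 1 of 26 regulators of the RB and E2F axis, Cdk6, the kinase that phosphorylates RB, passed at 12.61, 10.89 and 12.93 against 8.38 to 10.07 (2.92 ± 0.53, adjusted p = 0.0168). Neither passed with the seminal vesicle covariate (differences of 1.31 and 2.89, adjusted p = 0.328 and 0.147). In normal prostate Cdk6 read 9.07 to 11.31 (median 10.95), a range that held tumour 4. Rb1 itself read 11.72, 10.89 and 12.47 against 9.73 to 11.69 (adjusted p = 0.117), and passed without tumour 2 (1.63, adjusted p = 0.0218) or without tumour 4 (1.76, adjusted p = 0.0436).

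Chromatin and Notch genes are read against the same 3.07%. Of 18 Polycomb and DNA methylation genes, Tet1, which oxidises methylcytosine, passed at 2.31 ± 0.33 and the Polycomb protein Bmi1 at 1.63 ± 0.37 (adjusted p = 0.00467 and 0.0363). Ezh2, the Polycomb methyltransferase, read 12.64, 11.35 and 12.95 against 10.04 to 12.33 (adjusted p = 0.166), again with tumour 2 the highest of its group. Of 19 Notch genes, Hes5, a target of the pathway in neural progenitors, passed at 9.34, 7.41 and 9.13 against 4.20 to 6.23, dim on all 6 Chga-low and all 9 normal arrays (3.52 ± 0.53, adjusted p = 0.00655; at least 2.67-fold). Dll3, an inhibitory ligand found on neuroendocrine tumours, read 9.18, 7.85 and 9.68 against 6.49 to 7.79, without overlap, and missed the threshold (1.56 ± 0.42, adjusted p = 0.064), which it passed without tumour 4 (2.09, adjusted p = 0.00755). Notch1 and Hes1 gave differences of -0.21 and -0.49 (adjusted p = 0.808 and 0.606).

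Of 11 genes of MHC class I presentation, 4 fell in the Chga-high tumours and none rose, where 1.9% of all genes were lower. All 11 differences were below 0, and the median was -2.01. B2m, the light chain of every class I molecule, read 13.55, 13.92 and 11.63 against 14.29 to 15.68 (-2.17 ± 0.49, adjusted p = 0.0344). H2-K1, a heavy chain, read 12.49, 13.65 and 10.76 against 13.74 to 15.33 (-2.38 ± 0.57, adjusted p = 0.0416). Tapbp, which loads peptides, and Psmb9, an immunoproteasome subunit, differed by -2.18 ± 0.45 and -2.32 ± 0.58 (adjusted p = 0.0255 and 0.0496). Tumour 9 was the lowest tumour for all 4, and the groups were close together between tumour 4 and tumour 2 for B2m and H2-K1. Of the 4 calls, 2 lay below all normal prostates. The class I score was 8.64 to 10.51 in the Chga-high tumours, 10.97 to 12.15 in the Chga-low ones and 10.50 to 11.03 in normal prostate. None of the 4 calls passed with the seminal vesicle covariate, nor without tumour 1, without tumour 9, or with tumours 6 and 8 averaged. With the covariate the differences were -1.44 for B2m, -1.91 for H2-K1, -2.23 for Tapbp and -2.96 for Psmb9. The 15 interferon-stimulated genes all had negative differences, with a median of -1.22. Against the same 1.9%, 1 of them, the GTPase Igtp, passed (-1.69 ± 0.40, adjusted p = 0.04). The interferon score was 7.41 to 9.05 in the Chga-high tumours, around the 7.92 to 8.91 of normal prostate. It was 9.94, 10.53 and 10.47 in tumours 2, 6 and 8, and 8.71 to 9.13 in the rest of the Chga-low group. Igtp read 8.92, 9.77 and 8.31 in tumours 1, 4 and 9, and 8.88 to 9.90 in normal prostate. For this gene all the Chga-low tumours lay above all normal prostates.

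Few marker genes of other cell types passed the test. No gene passed among 14 of smooth muscle, 8 of skeletal muscle, 20 of fibroblasts and matrix, 13 of endothelium, 15 of macrophages, 7 of B and plasma cells, 8 of nerve and Schwann cells, 7 of urothelium or 4 of adipocytes, where limma's 4.97% of all genes is the background. Their medians ran from -1.08 for smooth muscle to 1.12 for adipocytes, and the nerve and Schwann list had a median of 0.13 with scores of 7.72 to 8.82 against 8.19 to 8.70. The part of these cell types in the results was not tested. Among 8 genes of T and NK cells, Ccl5, a chemokine, passed at 8.33, 7.05 and 7.21 against 9.18 to 10.18 (-2.10 ± 0.35, adjusted p = 0.0103). The T and NK score was 6.11 to 6.75 in the Chga-high tumours and 6.95 to 7.89 in the Chga-low ones, but 10 of 14 members on the array were dim in all 3 Chga-high tumours.

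**Figure D5:**
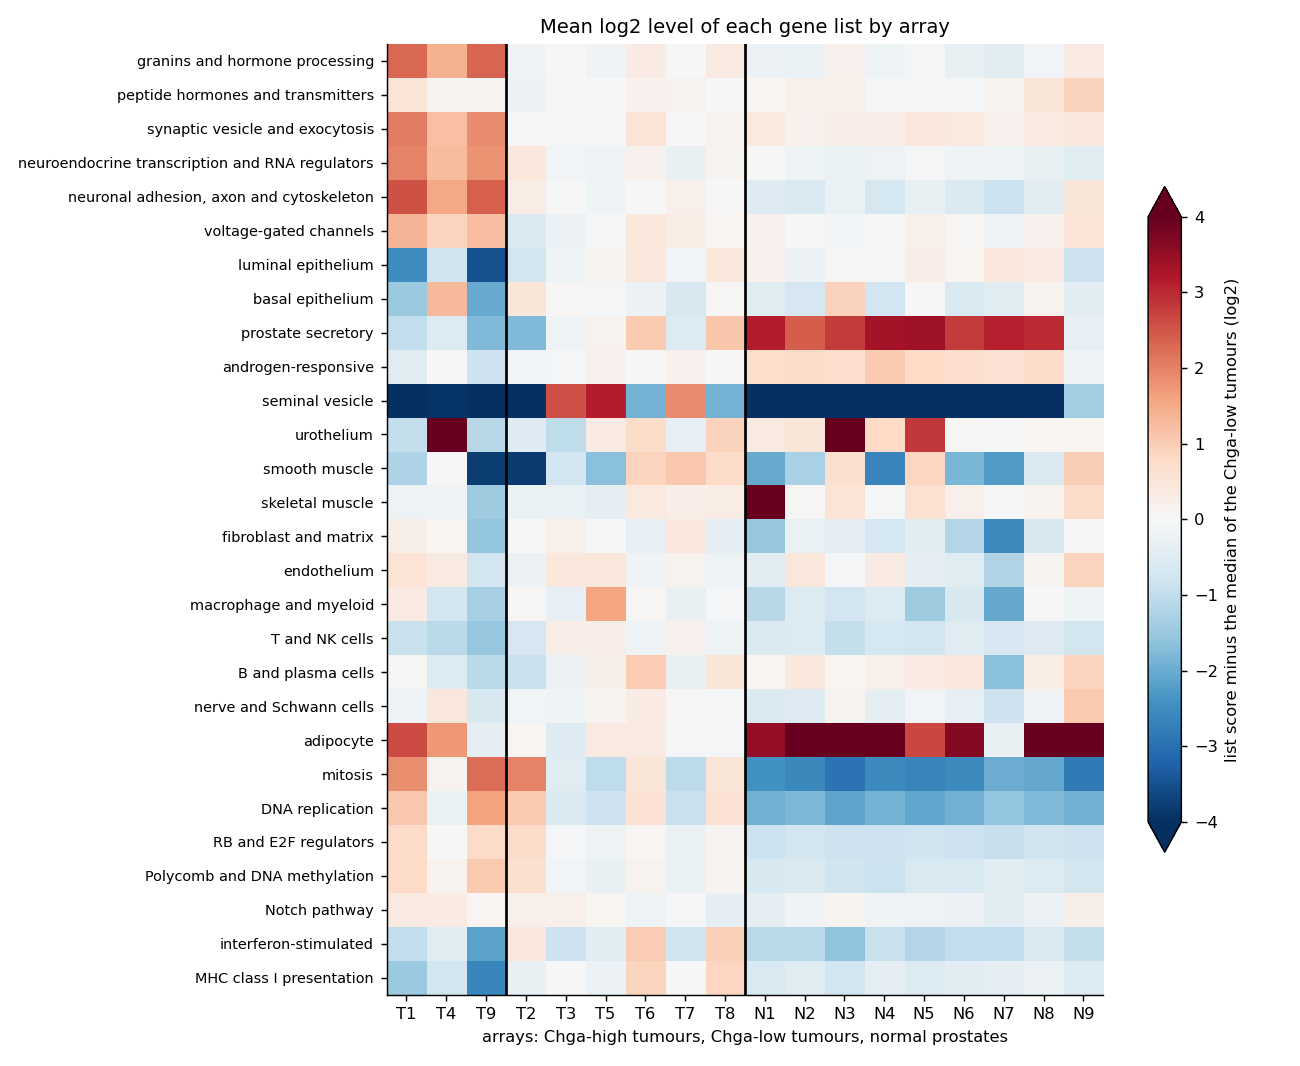
Mean log2 level of the members of each gene list in each array, less the median of the 6 Chga-low tumours, with red above and blue below and colour saturated at 4 log2 units; black lines part Chga-high tumours (T1, T4, T9), Chga-low tumours and normal prostates. The granule, vesicle, regulator and neuronal lists are highest in T1, T4 and T9, the seminal vesicle list separates T3, T5 and T7 from T2, and the mitosis list is raised in T1, T9 and T2.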

How the data were processed

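Total RNA of 9 TRAMP tumours and 9 normal prostates was measured on Affymetrix arrays. The authors deposited 1 linear intensity per probe set, computed by MAS5 (no version given) according to the submitters' processing notes. MAS5 scales each array by 1 factor, so the trimmed mean was 500 on every array, and dim values stay noisy. The number of arrays limits the precision.

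The Chga split and the gene lists were chosen with earlier results of these data known. Groups are a split of 1 labelled group by the level of 1 gene, so a test asks which genes go with that split. Whether each array is a different animal is not stated in the labels, so the tests measure a spread between arrays that may be technical.

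Values were taken as log2(signal + 16) with no further scaling. Probe sets above the 40th percentile of their array on at least 3 of 9 tumours were kept, and for 13889 genes the probe set naming that gene alone and brightest on average in the tumours was used. Of 315 called genes with several kept probe sets, 25 had one that went the other way. The filter lets through 139 genes that were above it on all 3 Chga-high arrays and on none of the 6 Chga-low ones, so counts over tested members lean towards higher calls. The lmFit and eBayes functions of limma 3.58.1 (R 4.3.3) tested the 3 against the 6 tumours, two-sided, with Benjamini-Hochberg adjustment at 0.05, and was tested on simulated data first. Normal prostates entered no test. A score is the mean log2 level of a list's members on the array.

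The genes named are a fixed set, 15 rises and 15 falls, and in each list at most 4 ranked on absolute t. The rises and falls passed without overlap and were picked on the measured difference, dim arrays included, which sets no order of sizes. Others are said to be picked out after their values were seen. The 29 lists were joined by 5 assembled after the calls were seen. Alternatives were other pseudocounts, filters, scalings, variance models, probe set rules and tests, the spike batch, the seminal vesicle score, the actin ratio of RNA quality, and omission of each tumour. Promoters came from RefSeq, GRCm38.p6. Figures were drawn with matplotlib.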

Additional observations from a re-analysis of the deposited data

Results flagged for a closer look

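Levels below are log2(signal + 16), or the mean of that over a list for a score, with the nearest other array of the group in brackets. In each case 1 array lay far above or below the rest of its group, by its gap to that neighbour over the group's range. This was so for 46 of the 268 groups of arrays examined, where chance gives about 1 in 20. No cause was tested.

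Among the 6 Chga-low tumours, tumour 2 was the array apart most often. It was the highest for Foxa2 at 11.57 (7.46), for Pglyrp1 at 11.67 (8.91) and for Rb1 at 11.69 (10.19). It was the lowest for Ncam1 at 8.35 (10.43), for Tspan1 at 9.98 (12.94), for the seminal vesicle gene Svs4 at 9.38 (14.07) and for B2m at 14.29 (15.24). Tumour 7 was the lowest for Elavl4 at 6.14 (6.67), Pcsk1 at 5.20 (6.63) and Peg3 at 7.20 (7.66), and the highest for Snap91 at 8.07 (7.02). Single high values were those of tumour 6 for Syt1 at 8.55 (7.84) and of tumour 8 for H2-Ab1 at 11.53 (10.75). Tumour 5 had the highest macrophage and myeloid score at 11.40 (9.88).

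Normal prostate 9 was the array apart most often among the 9 normal samples. Its seminal vesicle score was 10.01 (7.06), its prostate secretory score 7.87 (10.65) and its androgen-responsive score 9.79 (10.53). It had the lowest Hoxb13 at 4.50 (10.85), Foxa1 at 8.50 (13.21), Crabp1 at 4.24 (9.75), Myo5c at 7.65 (10.94) and Tac1 at 6.25 (8.45). It was also the lowest for Cdh1 at 12.74 (13.68), Cdk6 at 9.07 (10.40), Ezh2 at 8.49 (9.56) and H2-K1 at 13.42 (13.95). It was the highest for Ncam1 at 11.32 (8.38), Igtp at 9.90 (9.36), the neuronal adhesion score at 8.08 (7.33), the channel score at 7.70 (7.38) and the nerve and Schwann score at 9.41 (8.49).

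Normal prostate 3, the array closest to tumour 4, was the highest for Trp63 at 11.96 (10.11), Notch1 at 11.14 (10.08), Peg3 at 11.92 (9.56) and Scg3 at 6.30 (5.36). It was the lowest for Cldn3 at 9.04 (11.31) and Tapbp at 11.68 (12.28). Normal prostate 7 was the lowest for the B and plasma cell score at 6.54 (8.27), the adipocyte score at 6.70 (9.67) and the imprinted gene score at 7.69 (8.10). Normal prostate 1 had the highest skeletal muscle score at 12.83 (7.76). The remaining 5 were dim genes: Pcsk1 at 5.37 (6.79) in normal prostate 6, Srrm4 at 4.84 (6.27) in 2, Tet1 at 4.50 (5.81) in 4, Rfx4 at 5.75 (4.71) in 5 and Dbx1 at 4.67 (6.52) in 8.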

How the results depend on the processing

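Against 690 calls, the count was within 1.5 times under 13 of 33 alternatives, those of pseudocount, filter, scaling, probe set rule, intensity trend, spike batch and actin ratio (566 to 764). It rose to 7302 with array weights, whose estimate did not converge, to 1948 with all 18 arrays sharing 1 spread, and to 1622 with the Chga level as a continuous measure. It was 2603 within the dim spike batch, where tumour 9 is the only Chga-high array and is assumed to vary like the others. It fell to 130 with the seminal vesicle score as a covariate and to 178 without tumours 3, 5 and 7 (108 and 149 of them among the 690). Leaving out 1 tumour gave 167 to 1950, each omission moving it by over 1.5 times, with the lowest count without tumour 9 and the highest without tumour 4. No gene passed in the exact Wilcoxon test (2650 at an unadjusted p under 0.05, smallest possible p 0.0238) or in limma within the bright spike batch (1192 unadjusted). In 3 alternatives chosen after seeing the data, the count was 393 with tumours 6 and 8 averaged, 0 in limma with tumour 2 as the only Chga-low tumour (1174 unadjusted), and 0 with tumours 3, 5 and 7 left out and 6 and 8 averaged (1361 unadjusted). Of the 76 named genes that passed, none turned sign among 2483 values, and 610 of those values no longer passed. No paired analysis was possible because the Chga-high and Chga-low tumours share no replicate number. With 3 against 6 arrays, and MAS5 values that are noisy when dim, a gene that did not pass is not shown to be alike in the groups.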

Other observations

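Further gene groups were assembled after the calls had been seen, and the genes below were picked out after their values were seen, so the counts describe these arrays and support nothing. Among all genes tested 3.07% were higher and 1.9% lower, with a median of -0.06. Imprinted genes, expressed from 1 parental copy, gave 8 higher and 1 lower of 28 tested, with a median of 0.83. Nnat, neuronatin, read 12.47, 10.50 and 12.04 in tumours 1, 4 and 9 against 4.82 to 8.03 in the Chga-low tumours (5.32 ± 0.71 SE, limma adjusted p = 0.00327). Peg3 read 10.48, 11.82 and 10.54 against 7.20 to 7.93 (3.29 ± 0.32, adjusted p = 0.000613), but normal prostate 3 held 11.92. Mkrn3 read 7.69, 7.69 and 7.95 against 4.44 to 5.12 (at least 1.48-fold), and Ndn 11.18, 10.74 and 11.54 against 6.69 to 9.75. The 9 calls included 6 whose Chga-high values lay above all normal prostates, and 5 that passed with the seminal vesicle covariate.

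Transcription factors that pattern the neural tube gave 9 higher and 1 lower of 15 tested, with a median of 3.54; another 14 of the 29 on the array were too dim to test. Rfx4 read 9.91, 8.47 and 10.33 against 4.18 to 4.63 (5.18 ± 0.37, limma adjusted p = 0.000161; at least 5.12-fold when dim arrays are set at their 40th percentile). Lhx1 read 8.97, 7.69 and 9.52 against 4.32 to 4.81 (at least 2.85-fold), Foxn4 10.40, 9.36 and 10.08 against 4.68 to 6.70 (at least 6.64-fold), and Dbx1 10.53, 9.51 and 12.29 against 4.63 to 7.42. The groups did not overlap for any of these 4, tumour 4 was the lowest of the 3 for each, and 6 of the 10 calls passed with the seminal vesicle covariate. Protocadherin beta genes, a cluster of neuronal adhesion molecules, gave 4 higher and none lower of 13, with a median of 0.97, and none of the 4 passed with that covariate.

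Genes of MHC class II presentation gave 3 lower and none higher of 8, with a median of -1.49. H2-Ab1, a class II chain, read 9.71, 9.54 and 8.15 against 10.30 to 11.53, and Cd74, the invariant chain, 10.98, 10.58 and 8.99 against 11.35 to 12.08 (limma adjusted p = 0.0394 and 0.0458). Chaperones and folding enzymes of the endoplasmic reticulum gave 11 lower and none higher of 32, all 32 differences were below 0 and the median was -0.95. P4hb, protein disulfide isomerase, read 12.22, 12.80 and 11.80 against 13.04 to 14.29 (-1.44 ± 0.31, adjusted p = 0.0302). The folding score was 10.85 to 10.93 in the Chga-high tumours, 11.35 to 12.42 in the Chga-low ones and 11.45 to 12.83 in normal prostate. None of the 3 class II calls and 7 of the 11 folding calls lay below all normal prostates. None of the 3 and none of the 11 calls passed with the seminal vesicle covariate.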
